A study of Caenorhabditis elegans with 20 samples.

Results

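The *oac* genes of *C. elegans* encode predicted O-acyltransferases, and their RNA was followed in dauer larvae in which the transcription factor DAF-16/FoxO was removed from the intestine. Members were all genes of the deposited table whose symbol is *oac-* followed by a number, 56 of 46925 genes, and 31 of them had a mean normalized count of at least 2 over the 20 libraries and were tested. RNA was sequenced from whole animals in 4 conditions with 5 biological replicates each. All animals, controls included, carried *daf-2(e1370)*, a mutation of the insulin receptor that is temperature-sensitive and gives dauer arrest at 25 °C, and *daf-16(ot853[daf-16::mNG::AID])*, in which the endogenous DAF-16 carries a fluorescent tag and a degron. The experimental condition was strain OH17582, which adds *otSi2[ges-1p::TIR1(F79G)]*, on 100 μM 5-Ph-IAA, a synthetic auxin. The no TIR1 control was strain OH14654, without the transgene, on 100 μM 5-Ph-IAA. The no auxin control was OH17582 and the condition with neither component OH14654, both on the solvent alone. Plates of all 4 conditions held 0.2% ethanol, the solvent, and all animals were kept at 25 °C. TIR1(F79G) is a plant F-box protein that, with 5-Ph-IAA bound, brings degron-tagged proteins to the proteasome, and the *ges-1* promoter limits it to the intestine, so DAF-16 in other tissues was not targeted. Animals grew for 3 days at that temperature, and each sample pooled about 24000 animals, from which the few animals that had not arrested as dauers had been picked off.

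OAC proteins are integral membrane proteins with an acyltransferase-3 domain, a fold related to bacterial enzymes that move acyl groups onto sugars of the cell envelope. The same domain is found in *C. elegans* in NRF-6 and NDG-4, which are known for yolk transport and for sensitivity to certain drugs, in RHY-1, which acts upstream of the hypoxia factor HIF-1, and in BUS-1, which affects the cuticle surface. For most *oac* genes no substrate or acyl donor has been assigned, so the genes are described below by level, position and change. DAF-16 is the FoxO factor that insulin signalling keeps out of the nucleus, and it is active in dauers, which live on stored fat.

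Reads on genes ranged from 3989669 to 15585703 per library in the experimental condition, from 10230512 to 12680810 in the no TIR1 control, from 7401425 to 10209257 in the no auxin control and from 6249223 to 12323401 in the neither condition. Experimental replicate 5 was the shallowest library, where 1 read was worth a normalized count of 2.91, and 20.8% of its reads lay on ribosomal RNA genes. The *daf-16* transcript averaged 8334 ± 492 normalized counts in the experimental condition, 8682 ± 281 in the no TIR1 control and 8764 ± 217 in the no auxin control (SD, n = 5 each). The degron acts on the protein, so this transcript does not check the labels.

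Many *oac* genes were near the detection limit in dauers. Of the 56 genes, 25 had a mean under 2 (0 to 1.48). No read was found in any library for *oac-5*, *oac-11*, *oac-25*, *oac-26*, *oac-35*, *oac-43* and *oac-44*, and because each was at 0 reads its RNA was not detectable at this depth. The other 18 were *oac-1*, *oac-2*, *oac-4*, *oac-9*, *oac-10*, *oac-13*, *oac-15*, *oac-16*, *oac-17*, *oac-19*, *oac-22*, *oac-27*, *oac-28*, *oac-34*, *oac-36*, *oac-38*, *oac-42* and *oac-45*, with at most 7 reads in any library. Among them only *oac-1* and *oac-9* averaged 2 or more in the experimental condition (2.18 and 2.31). *oac-1* had 16 reads over the 5 experimental libraries, against 2, 4 and 2 reads over the no TIR1, no auxin and neither libraries, and *oac-9* had 17 reads, against 5, 6 and 6. Detection differed between chromosomes. None of the 15 *oac* genes on chromosome I reached the mean of 2 (highest mean 1.48), although 79.9% of all protein-coding genes of that chromosome did. Of the other members, 3 of 6 were tested on chromosome II, 11 of 13 on chromosome IV, 16 of 21 on chromosome V and 1 of 1 on the X chromosome, and chromosome III holds none. Conversely, 4 of the 31 tested genes (*oac-20*, *oac-23*, *oac-30* and *oac-53*) had a mean under 2 over the control libraries and passed the filter because of the experimental libraries, and *oac-20* and *oac-53* are among the genes called below.

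The tested members spanned a wide range of levels. Per kilobase of exon, *oac-39* was far ahead with a mean normalized count of 7182 over the 20 libraries, followed by *oac-46* (941), *oac-55* (231), *oac-14* (216) and *oac-59* (49.7). At the lower end, 15 of the 31 genes had a mean count under 10, and the median member had a mean count of 10.7, against 79.7 for all 17090 genes tested. *oac-39* alone made up 56.9 to 64.6% of the normalized counts on *oac* genes in the experimental libraries, 85.0 to 85.6% in the no TIR1 control, 82.8 to 85.2% in the no auxin control and 83.3 to 84.4% in the neither condition. The summed count over all *oac* genes was 10239 to 11735 in the experimental libraries (median 11263), 23590 to 24925 in the no TIR1 control (median 24419.8), 21837 to 23963 in the no auxin control (median 23175) and 21846 to 24428 in the neither condition (median 22869). Without *oac-39* the order turned round, with 4206 ± 132 in the experimental condition, 3555 ± 75.6 in the no TIR1 control, 3599 ± 210.2 in the no auxin control and 3648 ± 151 in the neither condition (SD, n = 5 each). That order does not measure a shared rise. *oac-14* had a mean of 1159 in the experimental condition and of 226 to 296 in the controls, while *oac-46* and *oac-55* were lower in the experimental condition. The plot of levels per kilobase shows the range of levels. In whole animals, fewer cells of a type and less RNA per cell cannot be told apart, and this holds for every level given here.

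**Figure D1:**
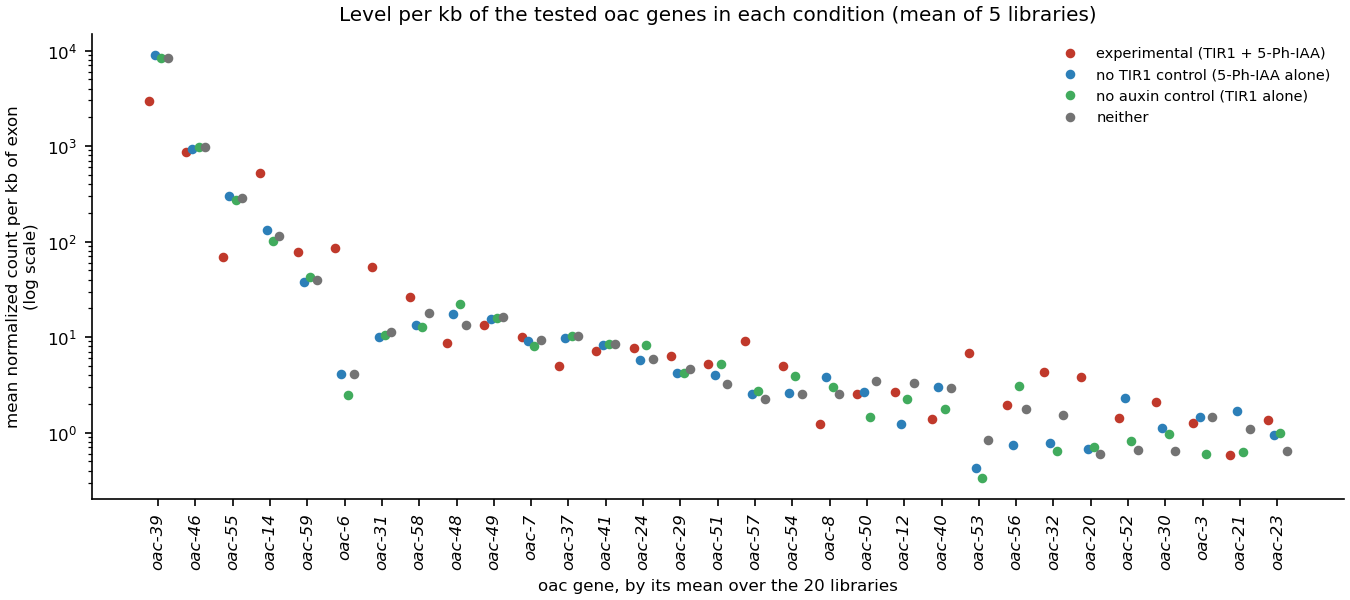
Mean normalized count per kilobase of exon (log axis) of the 31 tested *oac* genes, 1 point per condition (mean of 5 libraries), ordered by the mean over all 20 libraries. *oac-39* leads with 7182 per kilobase over all libraries, and the experimental point lies apart from the 3 control points for genes such as *oac-55*, *oac-14*, *oac-6* and *oac-31*.

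The main comparison asked which *oac* genes changed when DAF-16 was depleted from the intestine, each control that has only one component serving as reference. Against either control 9 members rose and 4 fell, and the 13 genes were the same in both comparisons. Called genes had a Benjamini-Hochberg adjusted p under 0.05 in limma and a change of at least 1.5-fold (0.58 on the log2 scale). Against the no TIR1 control 13 of 31 tested *oac* genes were called, where 9.17% of all tested genes were called (6.78% higher and 2.39% lower). Against the no auxin control the background was 8.88% (6.61% higher and 2.26% lower). Over all genes, 6.78% were called against both controls in the same direction (5.27% higher and 1.52% lower). The genes that rose were *oac-6*, *oac-14*, *oac-20*, *oac-31*, *oac-32*, *oac-53*, *oac-57*, *oac-58* and *oac-59*, and those that fell were *oac-37*, *oac-39*, *oac-48* and *oac-55*. The median log2 fold change of the 31 genes was 0.39 in either comparison, against −0.01 and −0.02 for all genes tested. That median includes *oac-20*, *oac-23*, *oac-30* and *oac-53*, which passed the filter because of the experimental libraries. Their changes were all positive in both comparisons, so the median is no support for a rise of the whole family. *oac-20* and *oac-53* also count among the 9 that rose, and *oac-53* among the separated genes named next. For 8 members the 5 experimental values did not overlap any of the 15 control values, 6 above them (*oac-6*, *oac-14*, *oac-31*, *oac-53*, *oac-57* and *oac-59*) and 2 below them (*oac-39* and *oac-55*), and 7.03% of all tested genes showed such a separation (4.53% above and 2.5% below). The 5 experimental libraries are shared by these comparisons, which are therefore not independent of each other.

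**Figure D2:**
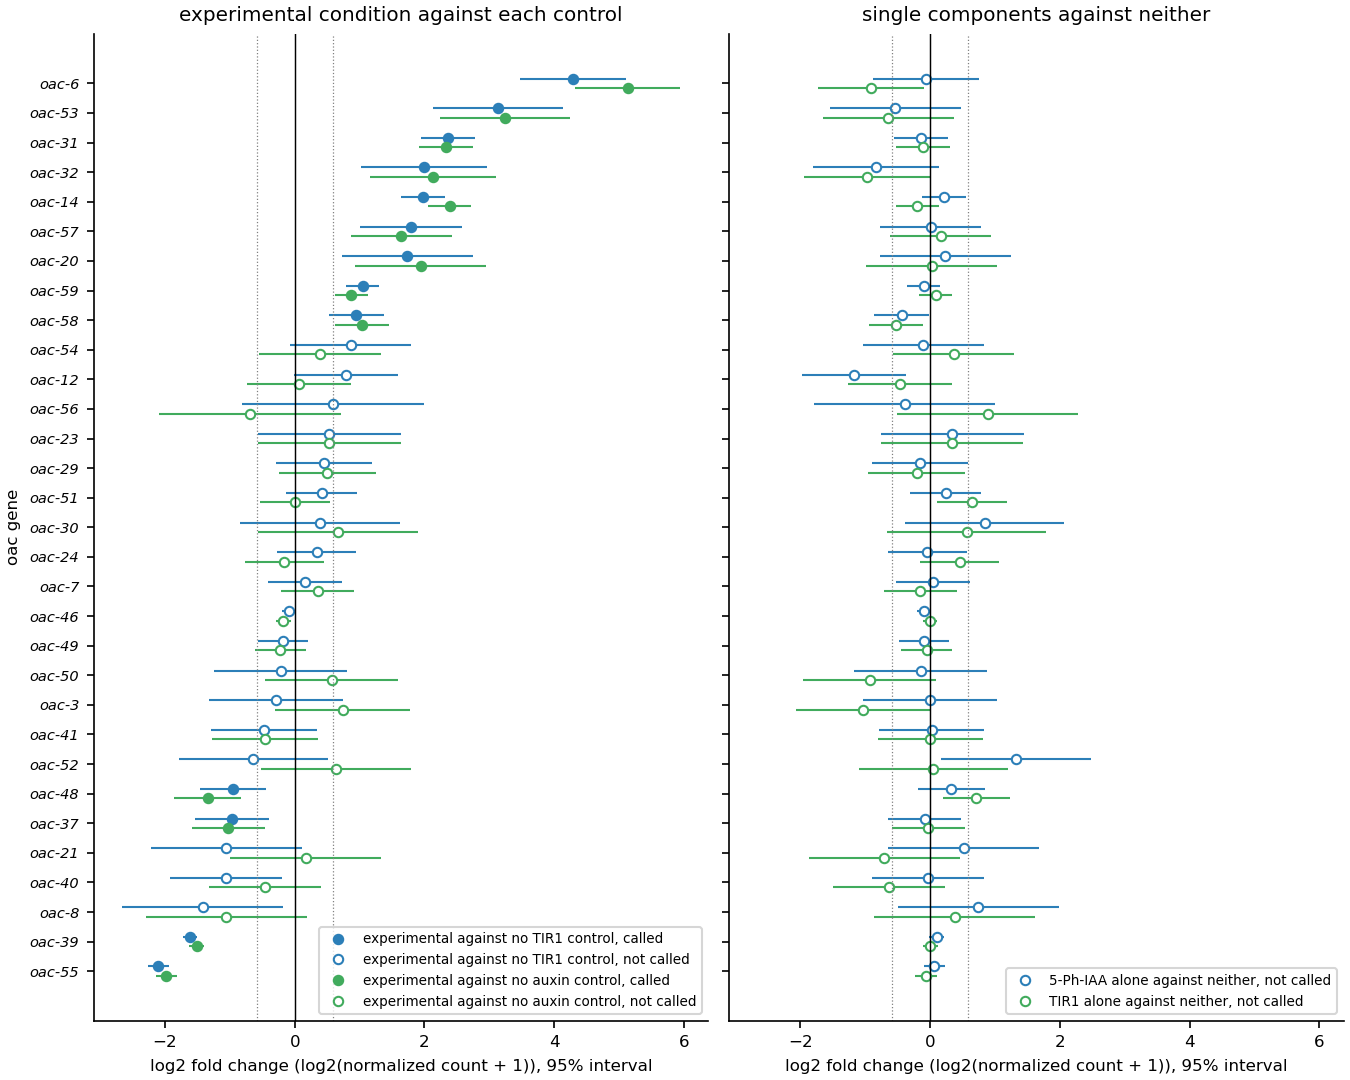
Log2 fold changes with 95% intervals (horizontal axis) of the 31 tested *oac* genes, for the experimental condition against each control (left) and for each component alone against neither (right), with dotted lines at 1.5-fold. Filled points mark the 13 genes called in both experimental comparisons, from *oac-6* at the top (4.29 and 5.13) to *oac-55* at the bottom (−2.10 and −1.98), and no point is filled on the right.

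*oac-39*, the most abundant member (WBGene00006419, chromosome V, 246608 to 251752, minus strand, WBcel235), fell in the experimental condition to a level far below that of every control. Its values were 6174, 7161, 7404, 5822 and 7579 in the experimental condition, against 20498, 20889, 21187, 20046 and 21300.3 in the no TIR1 control. The no auxin control had 19749, 18488, 20236, 18596 and 19936, and the neither condition 18428, 19259, 20615, 19808 and 18638. Every experimental library was below every control library, with no value between 7579 and 18428. The log2 fold change was −1.61 ± 0.05 (SE) against the no TIR1 control (limma, adjusted p = 6.60e-17) and −1.51 ± 0.05 relative to the no auxin control (adjusted p = 4.56e-16), and its p ranked 3 and 2 among the 17090 genes. *oac-55* (WBGene00021479, chromosome V, 3761139 to 3766315, plus strand), the third member by level over all 20 libraries, had 117, 167, 155, 163 and 175 in the experimental condition, against 682, 618, 709, 637 and 674 in the no TIR1 control. Its counts were 621, 552, 613, 610.5 and 650.1 in the no auxin control and 636, 613, 649, 591 and 690.4 in the neither condition. The groups did not overlap here either, and the fall was −2.10 ± 0.08 (log2 ± SE, limma, adjusted p = 4.78e-16) and −1.98 ± 0.08 (adjusted p = 1.80e-15).

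A further pair of members on chromosome IV fell less, with overlapping values. *oac-48* (WBGene00011960, 13673804 to 13677886, plus strand) had 14.5, 20.8, 22.9, 21.9 and 11.6 in the experimental condition, 41.6, 34.5, 21.2, 56.4 and 31.7 in the no TIR1 control, 64.6, 39.97, 36.7, 57.2 and 40.1 in the no auxin control and 17.9, 34.3, 36.2, 25.6 and 30.02 in the neither condition. All 5 experimental values lay below those of the no auxin control, but they overlapped the lowest value of the no TIR1 control and the lowest of the neither condition. The change was −0.95 ± 0.25 (log2 ± SE, limma, adjusted p = 0.00677) and −1.34 ± 0.25 (adjusted p = 2.82e-04). *oac-37* (WBGene00010391, 14145894 to 14148869, plus strand) had 6.43, 15.9, 8.74, 15.03 and 5.82 in the experimental condition, 26.5, 22.1, 16.3, 22.9 and 13.5 in the no TIR1 control, 15.9, 31.4, 18.8, 17.8 and 21.7 in the no auxin control and 18.99, 19.9, 17.3, 29.6 and 20.8 in the neither condition. Experimental replicates 2 and 4 overlapped the lowest controls and the other 3 were below all controls. Its change was −0.97 ± 0.27 (limma, adjusted p = 0.0125) and −1.02 ± 0.27 (adjusted p = 0.00869).

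Among the genes that rose, *oac-6* (WBGene00007833, chromosome V, 16302717 to 16306159, plus strand) changed the most. It had 209.9, 170.0, 179.6, 259.6 and 125 in the experimental condition, against 6.81, 3.54, 10.6, 12.4 and 12.5 in the no TIR1 control. The no auxin control had 2.81, 0.952, 8.92, 11.4 and 3.43 and the neither condition 8.94, 11.2, 7.87, 5.39 and 12.7. No control library reached 13 counts, and no experimental library was below 125. On the log2 scale of normalized count + 1 the change was 4.29 ± 0.40 (SE, limma, adjusted p = 6.45e-09) against the no TIR1 control, a 19.6-fold rise, and 5.13 ± 0.40 (adjusted p = 2.58e-10), or 35.0-fold, against the no auxin control. *oac-14*, the only member on the X chromosome (WBGene00008602, 10139372 to 10142013, minus strand), had 1196, 1329, 1245, 1069 and 958 in the experimental condition, against 248, 311, 292, 389.7 and 241 in the no TIR1 control. Its control values without 5-Ph-IAA were 206, 290.3, 217, 275 and 141 with TIR1 and 201, 235.03, 274, 347 and 223 with neither. With no overlap, it rose by 1.98 ± 0.16 (log2 ± SE, limma, adjusted p = 7.99e-10) and 2.39 ± 0.16 (adjusted p = 2.37e-11), and at 1159 ± 147 (SD, n = 5) it stood behind only *oac-39* and *oac-46* among the members in the experimental condition.

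**Figure D3:**
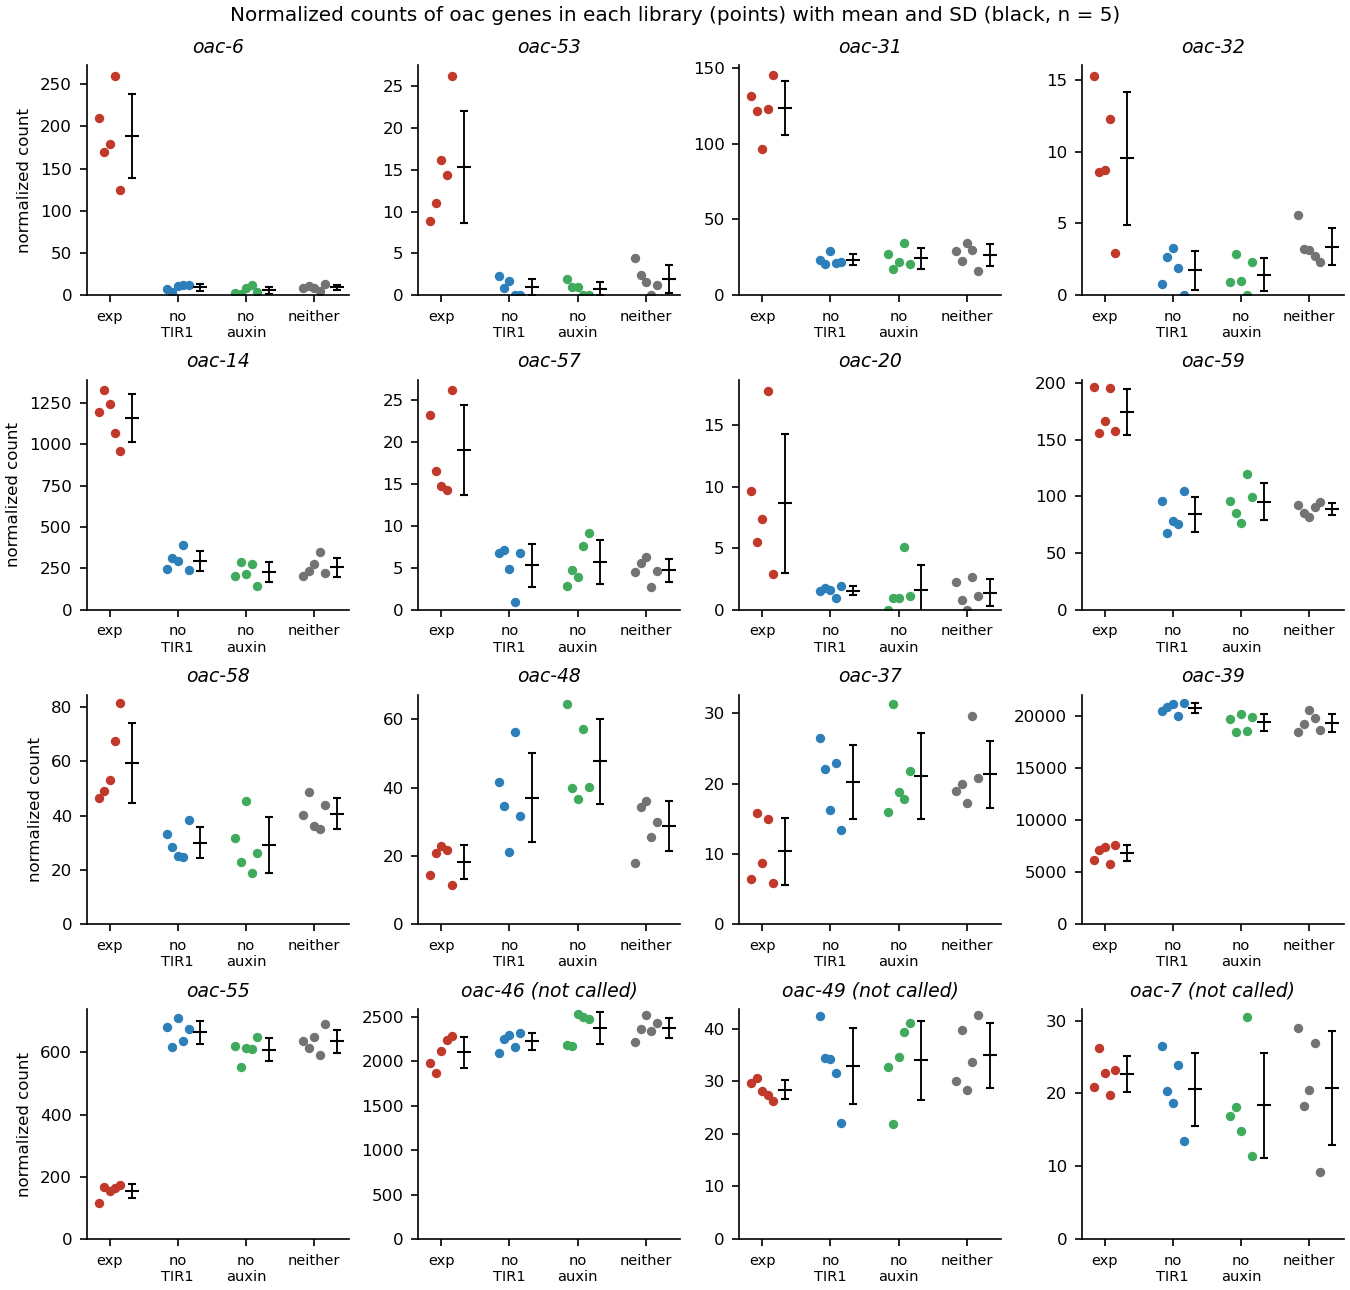
Normalized counts (vertical axis, from 0) in each of the 5 libraries of the experimental condition, the no TIR1 control, the no auxin control and the neither condition, with the mean and SD in black, for the 13 called *oac* genes and the 3 most abundant genes that were not called. In *oac-39* the experimental libraries lie between 5822 and 7579 and all controls at 18428 or above, while in *oac-46* the 4 conditions overlap.

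Called genes lay next to each other in a pair on chromosome V and a trio on chromosome IV. On chromosome V, *oac-31* (WBGene00018707, 1538354 to 1541886) and *oac-32* (WBGene00018708, 1542442 to 1545783) lie 555 bases apart on the minus strand, and both rose. *oac-31* had 132, 122, 96.8, 123 and 146 in the experimental condition, 23.5, 20.4, 29.3, 21.01 and 22.1 in the no TIR1 control, 27.1, 17.1, 21.8, 34.3 and 20.6 in the no auxin control and 29.04, 22.3, 34.6, 29.6 and 16.2 in the neither condition. The experimental values were all above the controls, with a rise of 2.36 ± 0.20 (log2 ± SE, limma, adjusted p = 1.50e-09) and 2.33 ± 0.20 (adjusted p = 1.70e-09). *oac-32* was lower in level, with 15.3, 8.56, 8.74, 12.3 and 2.91 in the experimental condition, 0.757, 2.66, 3.26, 1.91 and 0 in the no TIR1 control, 0.936, 2.86, 0.991, 0 and 2.29 in the no auxin control and 5.58, 3.19, 3.15, 2.69 and 2.31 in the neither condition. Experimental replicate 5, at 1 read, fell within the control values and the other 4 were above them. The rise was 1.99 ± 0.47 (limma, adjusted p = 0.00287) and 2.13 ± 0.47 (adjusted p = 0.00168).

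On chromosome IV, *oac-59* (WBGene00016585, 12293233 to 12301261), *oac-57* (WBGene00019579, 12304462 to 12307820) and *oac-58* (WBGene00019580, 12308293 to 12311697) follow each other on the minus strand with gaps of 3200 and 472 bases, and all 3 rose. *oac-59*, the most abundant of them, had 196, 156, 167, 195 and 157 in the experimental condition, 95.4, 67.3, 78.2, 75.5 and 105 in the no TIR1 control, 95.5, 85.7, 76.3, 119.6 and 99.6 in the no auxin control and 92.7, 85.2, 81.9, 90.2 and 94.7 in the neither condition. It rose with no overlap, by 1.05 ± 0.12 (log2 ± SE, limma, adjusted p = 4.37e-07) and 0.87 ± 0.12 (adjusted p = 8.05e-06). *oac-57* had 23.3, 16.5, 14.8, 14.3 and 26.2 in the experimental condition, 6.81, 7.09, 4.89, 0.955 and 6.73 in the no TIR1 control, 2.81, 4.76, 3.96, 7.63 and 9.16 in the no auxin control and 4.47, 5.58, 6.30, 2.69 and 4.62 in the neither condition. Its experimental values were also above every control, with a change of 1.79 ± 0.38 (limma, adjusted p = 9.49e-04) and 1.64 ± 0.38 (adjusted p = 0.00245). *oac-58* had 46.6, 48.9, 53.1, 67.6 and 81.5 in the experimental condition, 33.3, 28.3, 25.3, 24.8 and 38.4 in the no TIR1 control, 31.8, 22.8, 45.6, 19.1 and 26.3 in the no auxin control and 40.2, 48.6, 36.2, 35.02 and 43.9 in the neither condition. The lowest experimental value of *oac-58* was under the highest of the neither condition, and the change was 0.95 ± 0.21 (limma, adjusted p = 0.00119) and 1.04 ± 0.21 (adjusted p = 5.40e-04).

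Neighbours did not always move together. In all, 29 of the 56 genes lay in 11 clusters of members at most 10 kb apart, and 13 of the 18 neighbouring pairs in these clusters shared a strand. *oac-7* lies 3645 bases from *oac-6* on the same strand and was not called, at 22.6 ± 2.49 normalized counts in the experimental condition, 20.6 ± 5.00 in the no TIR1 control and 18.4 ± 7.25 in the no auxin control (SD, n = 5 each), and *oac-5* on the other side of *oac-6* had no reads. Between *oac-6* and *oac-7* lies 1 other protein-coding gene, and between *oac-5* and *oac-6* lie 4. The gaps within the called pair and trio hold 0. *oac-38* is next to *oac-37* and was under the filter. The clusters *oac-23*, *oac-22* and *oac-21*, *oac-51* and *oac-52*, and *oac-40* and *oac-41* held no called gene. Of the called genes 7 were on chromosome V, 5 on chromosome IV and 1 on the X chromosome.

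The last called genes, *oac-53* and *oac-20*, stand alone on chromosome V and were close to 0 in the controls. *oac-53* (WBGene00012308, 16623857 to 16627970, minus strand) had 8.84, 11.01, 16.1, 14.3 and 26.2 in the experimental condition, 2.27, 0.886, 1.63, 0 and 0 in the no TIR1 control, 1.87, 0.952, 0.991, 0 and 0 in the no auxin control and 4.47, 2.39, 1.57, 0 and 1.15 in the neither condition. No control library reached 5 counts and no experimental library was below 8. Its rise was 3.13 ± 0.49 (log2 ± SE, limma, adjusted p = 2.94e-05) and 3.24 ± 0.49 (adjusted p = 1.99e-05). *oac-20* (WBGene00009488, 15978714 to 15981779, plus strand) had 9.65, 5.50, 7.40, 17.8 and 2.91 in the experimental condition, 1.51, 1.77, 1.63, 0.955 and 1.92 in the no TIR1 control, 0, 0.952, 0.991, 5.09 and 1.14 in the no auxin control and 2.23, 0.797, 0, 2.69 and 1.15 in the neither condition. Experimental replicate 5, at 1 read, lay within the controls, and replicate 4 was the highest of all. The rise of *oac-20* was 1.73 ± 0.49 (limma, adjusted p = 0.0120) and 1.94 ± 0.49 (adjusted p = 0.00537). Without experimental replicate 4 the call against the no TIR1 control was lost (1.45, adjusted p = 0.0513). A pseudocount makes such changes smaller than the ratio of the counts. With a pseudocount of 5 the rises were 1.73 and 1.77 for *oac-53*, 0.97 and 0.99 for *oac-20* and 1.07 and 1.13 for *oac-32*, and all were still called. DESeq2 on the recovered reads gave 3.81 and 4.12 for *oac-53*.

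The other 18 tested members were not called against either control. Their log2 fold changes ran from −1.42 to 0.86 against the no TIR1 control (median 0.04, smallest adjusted p = 0.0801, for *oac-40*) and from −1.05 to 0.74 against the no auxin control (median 0.12). The most abundant of them was *oac-46* (WBGene00011768, chromosome II, 8848843 to 8852096, minus strand), the second member by level, with 2099 ± 175 in the experimental condition, 2225 ± 95.1 in the no TIR1 control, 2372 ± 179 in the no auxin control and 2374 ± 111 in the neither condition (SD, n = 5 each). Its change was −0.09 (95% interval −0.20 to 0.03, limma, adjusted p = 0.309) and −0.18 (−0.29 to −0.06, adjusted p = 0.0234), so the second passed the p threshold and stayed under 1.5-fold. *oac-49* (WBGene00012068, chromosome V, 19217975 to 19222908, plus strand) had 28.4 ± 1.78 in the experimental condition, 32.96 ± 7.30 in the no TIR1 control and 33.99 ± 7.58 in the no auxin control (SD, n = 5 each), and changed by −0.18 (−0.57 to 0.21, limma, adjusted p = 0.578) and −0.22 (−0.61 to 0.17, adjusted p = 0.475). For *oac-7* (WBGene00007835, chromosome V, 16309805 to 16314775, plus strand), the intervals were −0.41 to 0.72 around 0.16 (limma, adjusted p = 0.759) and −0.21 to 0.92 around 0.35 (adjusted p = 0.421). The upper ends for *oac-7* include rises past 1.5-fold, while both intervals for *oac-46* end within it. The remaining 15 genes were *oac-3*, *oac-8*, *oac-12*, *oac-21*, *oac-23*, *oac-24*, *oac-29*, *oac-30*, *oac-40*, *oac-41*, *oac-50*, *oac-51*, *oac-52*, *oac-54* and *oac-56*, with mean counts from 2.03 (*oac-21*) to 19.04 (*oac-41*). *oac-8* had the most negative value of them, −1.42 ± 0.60 against the no TIR1 control (limma, adjusted p = 0.106) and −1.05 ± 0.60 relative to the no auxin control (adjusted p = 0.251).

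The single-component comparisons asked whether the ligand or the transgene alone changed the *oac* genes. No member was called for 5-Ph-IAA alone (the no TIR1 control against neither), where limma called 0.0293% of all tested genes (0.0234% higher and 0.00585% lower), nor for TIR1 alone (the no auxin control against neither), where it called 0.246% (0.0819% higher and 0.164% lower). Over all genes the 42 calls for TIR1 alone became 24 without replicate 2 of the no auxin control and 24 without replicate 4 of the neither condition. At an unadjusted p under 0.05 there were 3 of 31 members for 5-Ph-IAA alone (*oac-12*, *oac-52* and *oac-58*) and 4 for TIR1 alone (*oac-6*, *oac-48*, *oac-51* and *oac-58*), and edgeR and DESeq2 called 0 in either comparison. Over all 17090 tested genes, 835 and 1795 were under that p in limma, so these members are not read as a response to either component. In *oac-58* the ligand alone gave −0.44 ± 0.21 (SE, limma, adjusted p = 0.982) and the transgene alone −0.52 ± 0.21 (adjusted p = 0.330), both opposite in sign to its rise. In the 13 genes called above, the changes for 5-Ph-IAA alone ran from −0.83 (*oac-32*) to 0.33 (*oac-48*), and those for TIR1 alone from −0.97 (*oac-32*) to 0.71 (*oac-48*). For *oac-39* they were 0.10 ± 0.05 (SE, limma, adjusted p = 0.9997) and 0.00 ± 0.05 (adjusted p = 0.989), and for *oac-55* 0.06 ± 0.08 (adjusted p = 0.9997) and −0.06 ± 0.08 (adjusted p = 0.862). Both comparisons use the same neither libraries. The interaction, that is the change with 5-Ph-IAA in animals with TIR1 minus that in animals without it, was called for 10 of 31 members, 7 positive and 3 negative, where 6.73% of all tested genes were called (5.22% positive and 1.52% negative). It was 5.20 ± 0.56 (SE) for *oac-6* (limma, adjusted p = 2.23e-07), −1.62 ± 0.08 for *oac-39* (adjusted p = 3.39e-13) and −2.04 ± 0.11 for *oac-55* (adjusted p = 2.28e-12). *oac-57*, *oac-20* and *oac-37* missed the threshold, at 1.63 ± 0.53 (limma, adjusted p = 0.05002), 1.71 ± 0.69 (adjusted p = 0.128) and −0.94 ± 0.39 (adjusted p = 0.137).

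Other acyltransferase genes were set beside the *oac* genes in the same fit. Of the 4 relatives with the same domain, *nrf-6*, *ndg-4*, *rhy-1* and *bus-1*, limma called 0 in either experimental comparison, with 2 at an unadjusted p under 0.05 in each. *ndg-4* had 257 ± 15.5 normalized counts in the experimental condition, 195 ± 20.3 in the no TIR1 control and 196 ± 16.9 in the no auxin control (SD, n = 5 each), a log2 change of 0.40 in either comparison that stayed under 1.5-fold (limma, adjusted p = 4.85e-04 and 5.59e-04). *rhy-1* was just under the fold cutoff, at 241 ± 38.4 in the experimental condition, 166 ± 53.4 in the no TIR1 control and 165 ± 35.8 in the no auxin control (log2 changes 0.58 and 0.56, limma, adjusted p = 0.0235 and 0.0292). Of the 7 tested membrane-bound O-acyltransferase genes (*mboa* and *hhat*), which acylate lipids and proteins, limma also called 0, with 5 and 4 at an unadjusted p under 0.05. Among all 17090 tested genes, 5180 and 5200 were at an unadjusted p under 0.05 against the no TIR1 and no auxin controls. Among 12 tested *acl* genes, whose products acylate glycerol lipids, *acl-12* rose against both controls (0.76 and 0.70, limma, adjusted p = 7.51e-10 and 3.30e-09) and *acl-7* rose against the no auxin control (0.67, adjusted p = 1.66e-05), with 0.53 against the no TIR1 control. *dgat-2*, which makes storage triglyceride, rose by 0.63 and 1.07 (limma, adjusted p = 0.0213 and 1.87e-04). The plot of shares called places these lists beside the 31 *oac* genes, and no test of a list was made.

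**Figure D4:**
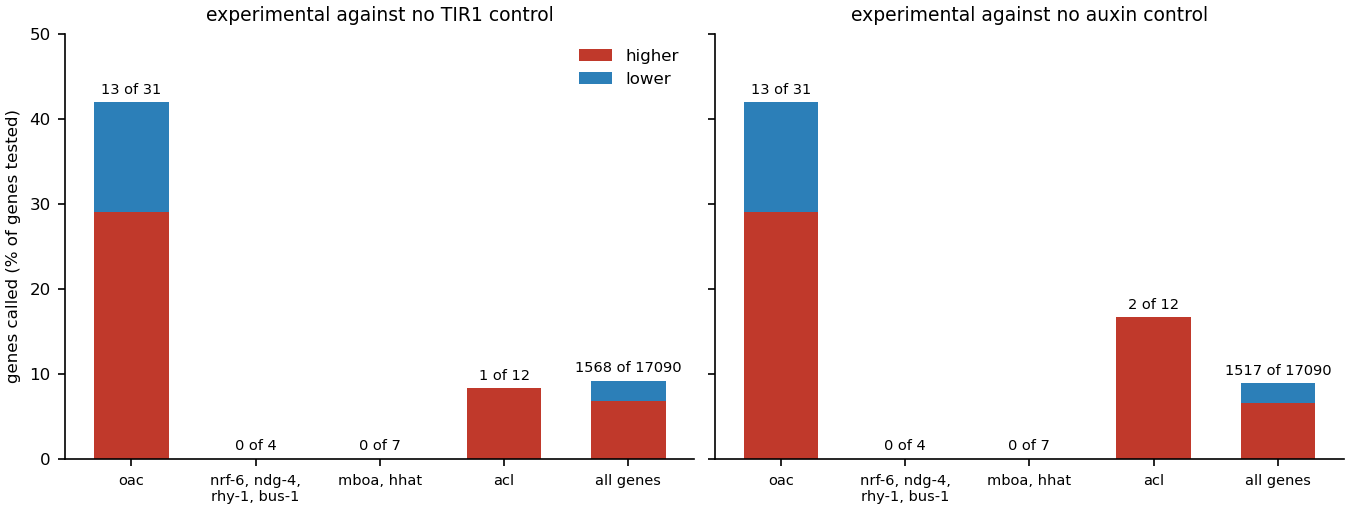
Percentage of tested genes called higher or lower (stacked bars, from 0) in the experimental condition relative to the no TIR1 control (left) and the no auxin control (right), for the *oac* genes, 3 lists of other acyltransferases and all genes tested. The bar of the *oac* genes reaches 41.9% in both plots (13 of 31), against 9.17% and 8.88% for all genes.

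Markers of several cell types moved with the experimental condition. Of 10 oocyte markers, 10 rose against the no TIR1 control and 9 relative to the no auxin control, and their summed normalized count was 2725 to 6832 in the experimental libraries (median 4348), 1483 to 1888 in the no TIR1 control, 1620.3 to 2695 in the no auxin control and 1578 to 3023 in the neither condition. All 6 yolk protein genes, which the adult intestine expresses, rose in both comparisons, with a summed count of 8617 to 53264 in the experimental libraries, 3.84 to 1854 in the no TIR1 control, 0.991 to 8287 in the no auxin control and 87.5 to 14135 in the neither condition, and *col-19*, a collagen gene of the adult epidermis, rose too. Of 7 intestinal markers 4 rose in each comparison (summed count 13726 to 14692 in the experimental libraries and 9303 to 9939 over all controls). Epidermal markers rose for 2 and 1 of 5. Limma called 0 of 6 neuronal markers (2 at an unadjusted p under 0.05 in each comparison), 0 of 4 muscle markers (2 in each), 0 of 3 tested sperm markers (1 and 0) and 0 of 3 dauer cuticle genes (0 and 1). Of all 17090 tested genes, 5180 and 5200 were under that p in these comparisons. The dauer cuticle genes were present in every condition, which does not show the stage of each animal in a pool. Their log2 changes were 0.17 to 0.40 against the no TIR1 control and −0.66 to −0.51 relative to the no auxin control. With TIR1 alone they were 0.81 to 0.95, all 3 at an unadjusted p under 0.05 in limma and none called. For TIR1 alone 1795 of the 17090 tested genes were under that p.

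With the log2 of the oocyte sum as a covariate, limma called 6 *oac* genes against the no TIR1 control (*oac-6*, *oac-14*, *oac-31*, *oac-39*, *oac-55* and *oac-59*) and 7 relative to the no auxin control (the same 6 and *oac-53*), where it called 3.58% and 3.87% of all tested genes. In that fit *oac-39* changed by −1.53 and −1.44, *oac-55* by −2.26 and −2.12, *oac-6* by 4.45 and 5.27, *oac-14* by 2.59 and 2.93 and *oac-31* by 2.82 and 2.74. *oac-20*, *oac-32*, *oac-37*, *oac-48*, *oac-57* and *oac-58* were called in neither comparison then, with adjusted p from 0.106 to 0.591 in limma, and *oac-53* missed the threshold against the no TIR1 control (2.66, adjusted p = 0.102). Their folds mostly stayed near those of the fit without the covariate, at 1.76 and 1.96 for *oac-20*, 1.94 and 2.09 for *oac-32*, −0.86 and −0.93 for *oac-37* and −0.82 and −1.22 for *oac-48*. They were lower for *oac-57* (1.37 and 1.26) and *oac-58* (0.51 and 0.65). The oocyte sums of the experimental libraries (2725 to 6832) lay mostly above those of the controls (1483 to 3023). That fit can therefore hardly separate the oocyte markers from the condition, whether a fold stayed or a call was lost. The part of the oocyte markers in these changes was not tested beyond that fit. The control libraries with the highest oocyte sums were replicate 5 of the neither condition (3023) and replicate 5 of the no auxin control (2695), on either side of the lowest experimental sum. In each of them 11 of the 13 called *oac* genes lay within the range of the other 13 controls. The same share over all tested genes was not computed, and the 13 genes were called with these control libraries in the fit. This count is therefore a description only, and no conclusion about the oocyte markers is drawn from it. Beyond that range, *oac-6* was higher in replicate 5 of the neither condition (12.7, against at most 12.5) and *oac-57* in replicate 5 of the no auxin control (9.16, against at most 7.63), while *oac-31* (16.2) was lower in the first of these libraries and *oac-14* (141) in the second.

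**Figure D5:**
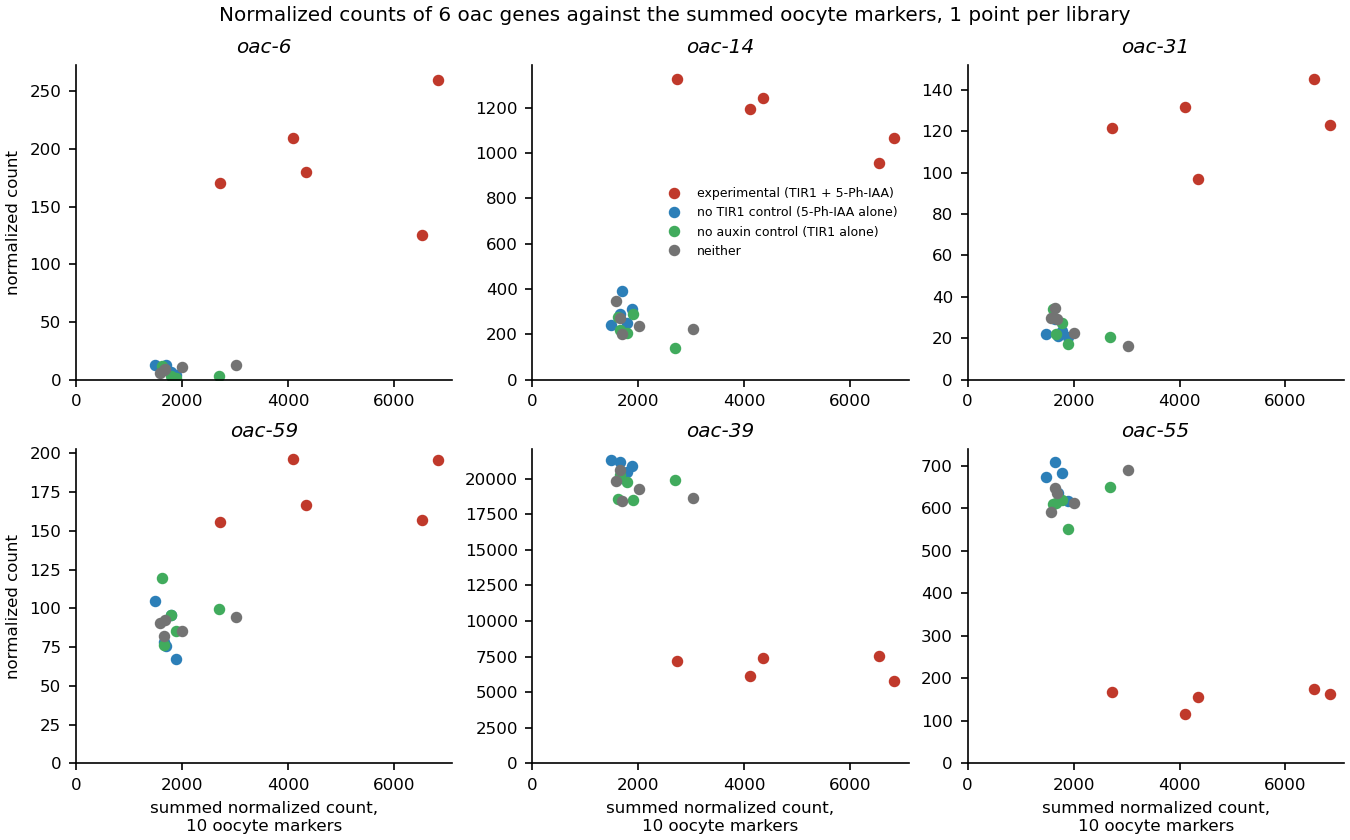
Normalized count (vertical axis, from 0) of 6 *oac* genes against the summed normalized count of 10 oocyte markers (horizontal axis), 1 point per library, coloured by condition. The 6 genes shown are those still called against both controls with the oocyte covariate, and the other called genes are not shown. In these selected panels the experimental libraries lie apart from the controls. The 2 control libraries with the highest oocyte sums lie at 2695 and 3023.

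Some members share sequence with genes on the other strand, and the strand setting of the counting was not given in the sources used here. Exons of 19 *oac* genes overlap an exon of an antisense gene, among them 5 called genes. For *oac-37*, *oac-48* and *oac-55* the partner had a mean count of at most 0.0874. *oac-59* overlaps *C42C1.8*, which averaged 317 in the experimental condition, 273 in the no TIR1 control and 281 in the no auxin control. *oac-20* overlaps *fbxa-99*, an F-box gene with 15.04 counts in the experimental condition, 7.96 in the no TIR1 control and 4.62 in the no auxin control, against 8.64, 1.56 and 1.63 for *oac-20* itself, so the value of *oac-20* is uncertain. Of the genes not called, *oac-46* overlaps *agxt-1*, which averaged 292 in the experimental condition, 236 in the no TIR1 control and 245 in the no auxin control. *oac-8*, at a mean of 5.80, overlaps *C43F9.4*, at 5.36, and *oac-40* and *oac-41* overlap each other by 46 bases on opposite strands.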

How the data were processed

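RNA was measured in 20 libraries, 5 in each of 4 conditions. The authors depleted ribosomal RNA, sequenced single ends in one pool, trimmed reads with Trimmomatic, aligned them with STAR and counted them per gene with featureCounts on Galaxy. Tool versions and the strand setting were not given in the sources used here. The deposited signal values are counts that the authors divided by DESeq2 size factors, 1 column per library. Dividing by the value of 1 read gave whole reads for 100% of values, with a largest deviation of 0.000377. Of 46925 identifiers, the WBcel235 annotation held 46921 and gave a symbol for 44113.

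Since the values are normalized, limma 3.58.1 (R 4.3.3) with a mean-variance trend was fitted to log2(normalized count + 1) of the 17090 genes with a mean of at least 2, over all 20 libraries with 1 mean per condition. P-values were adjusted by Benjamini-Hochberg over all genes of a comparison. Calls needed an adjusted p under 0.05 and 1.5-fold, and all tests were two-sided. Values in every library are given for *oac* genes called against both controls, and group means for the 3 most abundant genes that were not called. The members, the lists and the tests were chosen with earlier results of these data known. The fit was tested on simulated data. Recovery there was required only of genes with a mean of at least 10, which leaves out 4 of the called *oac* genes (*oac-20*, *oac-32*, *oac-53* and *oac-57*). Replicates are separate cultures per the methods. Replicates differed by more than counting error (chi-square over its degrees of freedom at least 2.84), so none was counted as 1 library deposited more than once. The alternatives tried were another pseudocount (0.5 or 5), another minimum mean (10 or none), quantile normalization, equal totals, a replicate block, the compared conditions alone, an oocyte covariate, other thresholds, each library left out, and edgeR 4.0.16 and DESeq2 1.42.0 on the recovered reads. Sequences were not analysed here. Python 3.11.15, pandas 2.3.3, numpy 2.4.6 and matplotlib 3.10.9 were used.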

Additional observations from a re-analysis of the deposited data

Results flagged for a closer look

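For 10 *oac* genes the change with 5-Ph-IAA differed between animals with and without TIR1(F79G), by limma's test of the interaction. The difference was 5.20 on the log2 scale for *oac-6*, 3.77 for *oac-53*, 2.96 for *oac-32*, 2.47 for *oac-31*, 2.18 for *oac-14*, 1.48 for *oac-58* and 0.97 for *oac-59*. It was −1.62 for *oac-39*, −1.67 for *oac-48* and −2.04 for *oac-55*. In *oac-48* TIR1 alone gave 0.71 ± 0.25 (SE) against neither (limma, adjusted p = 0.251), and in *oac-6* it gave −0.91 ± 0.40 (adjusted p = 0.403), both opposite in sign to the change in the experimental condition, and both missed the threshold. In *oac-58* each component alone was also opposite in sign to the rise, at −0.44 for 5-Ph-IAA (limma, adjusted p = 0.982) and −0.52 for TIR1 (adjusted p = 0.330). Its mean was 59.6 ± 14.7 in the experimental condition and 40.8 ± 5.59 in the neither condition (SD, n = 5 each), and the difference between these conditions was not tested. *oac-32* had larger opposite values, −0.83 for 5-Ph-IAA (limma, adjusted p = 0.9997) and −0.97 for TIR1 (adjusted p = 0.479). *oac-53* averaged 0.957 in the no TIR1 control and 0.763 in the no auxin control, against 1.92 with neither. The interactions of both genes rest in part on these low control counts.

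Of 64 sets of 5 libraries examined by Dixon's criterion over 16 genes, 3 held a library apart from the other 4, and chance gives about 1 in 20. *oac-20* was 5.09 in replicate 4 of the no auxin control, where the next value was 1.14. *oac-32* was 5.58 in replicate 1 of the neither condition, where the next was 3.19. *oac-37* was 29.6 in replicate 4 of the neither condition, where the next was 20.8. All 3 are control libraries in genes with low counts.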

How the results depend on the processing

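The oocyte marker covariate changed the counts most, to 6 *oac* genes (4 higher and 2 lower) against the no TIR1 control, 7 (5 and 2) relative to the no auxin control and 5 (3 and 2) in the interaction, in place of 13, 13 and 10. The share of all genes called was then 3.58%, 3.87% and 2.85%, in place of 9.17%, 8.88% and 6.73%. The folds moved by differing amounts. The interaction of *oac-32* stayed near, at 2.91 in place of 2.96. Against the no TIR1 control the log2 change fell from 0.95 to 0.51 for *oac-58*, under the fold cutoff. It fell from 1.79 to 1.37 for *oac-57* and from 3.13 to 2.66 for *oac-53*. The change rose from 1.98 to 2.59 for *oac-14* and from 2.36 to 2.82 for *oac-31*. The oocyte sum goes largely with the condition, so this fit can hardly separate the 2, whether a fold stayed or moved. The cause of the lost calls was not tested further. Under the other 13 settings the *oac* counts were 9 to 14, 9 to 14 and 8 to 11, lowest with a minimum mean of 10, which leaves 16 members tested. Over all genes these settings called 992 to 3369, 944 to 3237 and 775 to 1840, most with no fold cutoff and fewest with a 2-fold cutoff, in place of 1568, 1517 and 1151, which is 5.46 to 19.7%, 5.15 to 18.9% and 3.6 to 10.8% of the genes each setting tested. Leaving out each library gave 12 to 15, 13 to 13 and 10 to 12 *oac* genes, and 0 to 0 for each component alone. The replicate block gave 13, 13 and 11 *oac* genes and 0 for each component alone, while over all genes it called 18 in place of 5 for 5-Ph-IAA alone and 107 in place of 42 for TIR1 alone. DESeq2 called 12 and 61 there. Same-numbered libraries correlated with −0.10 to 0.25 over 30 pairs, 3 of them over 0.1, and 14 of 30 correlated best with their own number, which is a hint of shared variation from the data, since no label says what a number marks. edgeR and DESeq2 on the recovered reads each called 13, 13 and 10 *oac* genes. For the *oac* genes called in the main fit, 1204 fold changes were followed under 34 alternatives. Of these 26 fell below a threshold, 18 of them with the covariate, 5 with a 2-fold cutoff, 2 at an adjusted p of 0.01 and 1 without experimental replicate 4 (*oac-20*). None changed sign, but many could not. Other thresholds, another minimum mean or leaving out a library of a condition not compared leave the fold as it was, so this count does not measure robustness. The interaction was not refitted on the compared conditions alone, since it uses all 4. Depth limits the genes near 1 read per library. Experimental replicate 5, the shallowest library, held the lowest experimental value of *oac-20*, *oac-32*, *oac-37*, *oac-48*, *oac-6* and *oac-14*. It held the highest experimental value of *oac-31*, *oac-39*, *oac-53*, *oac-55*, *oac-57* and *oac-58*. Without this library *oac-37* changed by −0.81 and −0.86 and *oac-48* by −0.81 and −1.20, with all 4 still called.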
